A study of Mus musculus with 8 samples.

Results

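The nuclei described here are the cycling nuclei of the adult mouse heart, taken across all cell lineages. A nucleus was counted as cycling if at least 3 of 8 transcripts of the later cell cycle were detected in it: Top2a, Mki67, Cenpf, Cenpe, Aspm, Kif11, Bub1 and Knl1. Of the 37767 nuclei that passed filters in 5 libraries, 174 met this rule, a share of 0.461% (95% Clopper-Pearson interval 0.395 to 0.534%, covering counting error only). The members were chosen on these 8 transcripts, so their levels of these and other cell cycle genes are descriptions and carry no test.

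The study profiled nuclei of adult heart by 10x Genomics droplet sequencing, with unique molecular identifiers (UMIs) counted per gene. Its labels give 4 groups of 2 libraries: non-transgenic (nTg, labelled as wild type) female, nTg male, and female and male mice carrying a transgene for cyclin A2 (Tg). No age, strain or promoter of the transgene is stated in the sources used here, and nothing says whether libraries came from separate animals, so p-values measure only the spread between these libraries. Results use 5 libraries, 1 from nTg females and 2 from Tg mice of each sex as labelled, since the matrices under the other 3 labels did not match their own barcode lists.

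The libraries held 25045167 to 38593706 UMIs each, and any pair shared 14 to 28 of its barcodes. Ccna2, the gene of the transgene, goes against 2 labels: summed over nuclei with at least 3% of UMIs from Ttn, Ryr2 and Trdn it stood at 375 counts per 1000000 UMIs (CPM) in the library labelled nTg female 1 and at 0.327 CPM in the library labelled Tg female 1, against 749 CPM in Tg female 2 and 204 and 135 CPM in the Tg male libraries. With 1 nTg library, no comparison of genotypes was made, and libraries are named by label throughout.

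A dividing cell copies its DNA in S phase, assembles a spindle and condenses its chromosomes in G2 and M phase, and separates its daughters by cytokinesis. Cyclin A2 works with cyclin-dependent kinases in S phase and at entry into mitosis. Adult cardiomyocytes have largely left the cell cycle, while macrophages, endothelial cells and fibroblasts of the heart can divide. Many genes of the later cycle are repressed in resting cells by the DREAM complex, which binds the cell cycle genes homology region (core TTTGAA), and activated through CCAAT boxes bound by NF-Y.

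The 8 genes of the rule share more than their timing. Top2a encodes the topoisomerase that untangles DNA, Mki67 the coat protein of mitotic chromosomes, Cenpf, Cenpe, Knl1 and Bub1 act at the kinetochore, Kif11 pushes spindle poles apart, and Aspm sits at the poles. Promoters from 250 bases before to 50 after the start of each gene (RefSeq, GRCm38.p6; 5′ to 3′ on the gene's strand) are shown for 4 of them, chosen to show a promoter with several copies of both motifs, 1 with a single motif of each kind, and 1 lacking each motif. Capitals mark TTTGAA and CCAAT on either strand (TTCAAA and ATTGG on the other).
Top2a, chr11:99024140-99024439, minus strand: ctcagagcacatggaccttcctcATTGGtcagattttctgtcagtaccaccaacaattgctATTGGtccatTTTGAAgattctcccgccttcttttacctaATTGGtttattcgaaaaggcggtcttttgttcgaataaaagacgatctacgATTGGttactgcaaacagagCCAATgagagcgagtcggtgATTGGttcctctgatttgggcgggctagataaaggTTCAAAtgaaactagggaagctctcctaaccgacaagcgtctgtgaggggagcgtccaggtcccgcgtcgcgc
Kif11, chr19:37376132-37376431, plus strand: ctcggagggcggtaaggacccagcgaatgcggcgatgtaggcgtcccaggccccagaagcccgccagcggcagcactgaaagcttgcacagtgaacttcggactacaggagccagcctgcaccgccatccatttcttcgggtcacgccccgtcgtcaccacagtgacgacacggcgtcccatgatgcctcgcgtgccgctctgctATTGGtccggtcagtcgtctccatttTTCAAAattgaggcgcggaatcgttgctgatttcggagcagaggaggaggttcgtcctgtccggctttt
Bub1, chr2:127831810-127832109, minus strand: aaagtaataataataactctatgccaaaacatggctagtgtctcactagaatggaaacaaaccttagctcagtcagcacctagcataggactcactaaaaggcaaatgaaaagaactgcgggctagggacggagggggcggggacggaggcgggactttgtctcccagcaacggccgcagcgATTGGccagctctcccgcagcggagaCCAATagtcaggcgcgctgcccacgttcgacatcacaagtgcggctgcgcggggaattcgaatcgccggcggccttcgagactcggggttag
Knl1, chr2:119046869-119047168, plus strand: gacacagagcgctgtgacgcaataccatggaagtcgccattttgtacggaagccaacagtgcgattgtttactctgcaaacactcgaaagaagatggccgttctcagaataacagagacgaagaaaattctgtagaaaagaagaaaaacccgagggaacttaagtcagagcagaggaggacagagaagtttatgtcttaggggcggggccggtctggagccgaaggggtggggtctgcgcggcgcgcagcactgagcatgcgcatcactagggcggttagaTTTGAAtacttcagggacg

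The TTTGAA core stood in 6 of the 8 promoters, all but those of Cenpe and Bub1, and CCAAT in 7 of 8, all but that of Knl1. Of all 32851 promoters of the same length, 17.9% held TTTGAA and 37.4% held CCAAT. The motifs can overlap by 1 base, which none shown here do. A match is a description of letters and not a binding site.

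Cycling nuclei were found in every library. They were 23 of 6250 nuclei (0.368%, interval 0.233 to 0.552%) in nTg female 1, 21 of 9721 (0.216%, 0.134 to 0.330%) in Tg female 1 and 51 of 6997 (0.729%, 0.543 to 0.957%) in Tg female 2. They were 54 of 7941 (0.680%, 0.511 to 0.886%) in Tg male 1 and 25 of 6858 (0.365%, 0.236 to 0.538%) in Tg male 2. Tg female 2 and Tg male 1 were high and the other 3 libraries low, so the difference between libraries of 1 group was wider than that between sexes. The mean share was 0.472% ± 0.363 (SD, n = 2) in Tg female and 0.522% ± 0.223 (SD, n = 2) in Tg male, a difference of -0.05 percentage points (exact two-sided permutation p = 1, where 2 against 2 cannot go below 0.33). The ranges of the sexes overlapped. Ccna2 goes against the label of Tg female 1, so sex and transgene cannot be told apart here if that label is wrong. The sign of this difference was positive without called doublets (0.00422 points), at a mitochondrial limit of 1% (0.37 points) and after thinning to 2000 UMIs (0.016 points), and without Tg female 1 (0.207 points) or Tg male 1 (0.108 points), so no direction by sex is given.

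The 8 genes came together in the same nuclei. Among all nuclei, 35719 held none of them, 1781 held 1 and 93 held 2, and the counts beyond these lay between 21 and 37: 29 nuclei held 3, 21 held 4, 33 held 5, 31 held 6, 37 held 7 and 23 held all 8. Nuclei just inside and just outside the threshold differed in genes the rule did not use. Of 38 further genes of G2 and M phase, such as Cdk1 and Ccnb1, the nuclei with 3 rule genes had a median of 8 detected, at a median of 3665 UMIs. The nuclei with 2 rule genes had a median of 1, at a median of 5452 UMIs, and 27 of these 93 nuclei (29.0%) had at least 3 genes of this list. The plot of nuclei by number of rule genes shows this shape.

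**Figure D1:**
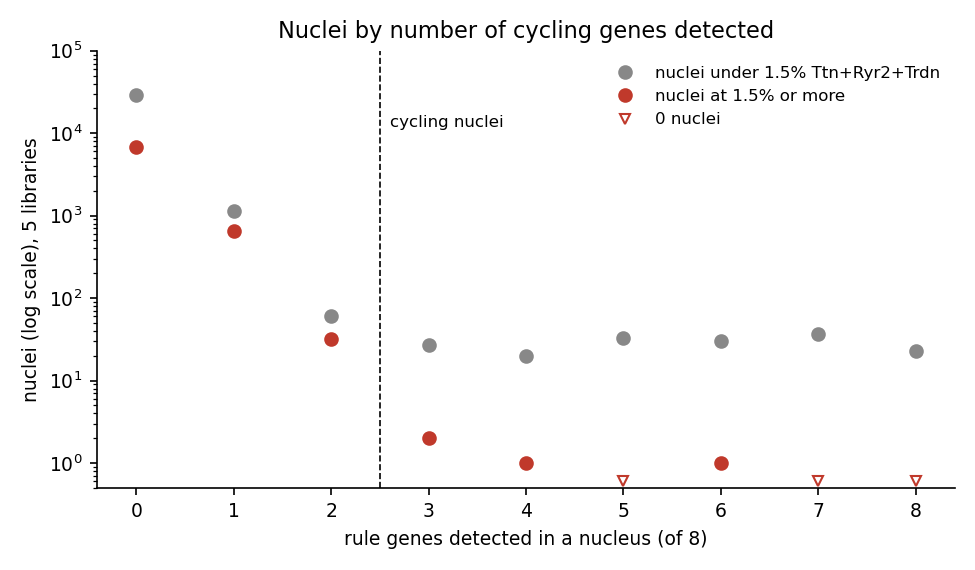
Number of nuclei (log scale, 5 libraries) against the number of the 8 rule genes detected, for nuclei with under 1.5% (grey) and at least 1.5% (red) of UMIs from Ttn, Ryr2 and Trdn; open triangles stand for 0 nuclei and the dashed line for the threshold. Beyond the line the grey counts lie between 19 and 36 nuclei, and the red counts sum to 4.

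Top2a was detected in 162 of the 174 members (93.1%), Knl1 in 81.6%, Mki67 in 78.7%, Kif11 in 71.8%, Cenpf in 70.7%, Cenpe in 65.5%, Aspm in 56.9% and Bub1 in 36.2%. Summed over the members of each library, Top2a stood at 1032 CPM in nTg female 1, 896 and 617 in Tg female 1 and 2, and 850 and 969 in Tg male 1 and 2. Mki67 stood at 406, 452, 187, 413 and 517 CPM in the same order. Both genes were lowest in Tg female 2, where 1 nucleus called a doublet held 26.9% of the member UMIs. Top2a was detected in 94.1% of the members of that library. In cardiomyocytes as defined below the share of nuclei with a UMI was 0.0829% for Top2a and 5.43% for Cenpf, against 0.33% and 1.43% in other nuclei that were not cycling, at median depths of 7827 UMIs for the cardiomyocytes and 2783 UMIs for all nuclei that were not cycling. No single gene carried the rule: 151 members were left without Top2a and 172 without Aspm.

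Cycling nuclei were deeper than the rest, with a median of 4471 UMIs against 2783. A doublet caller marked 36 of them (20.7%), against 8.48% of the other nuclei and 33.3% of the 870 other nuclei matched to them below on library, class and depth. Without the called doublets 138 cycling nuclei were left among 34542 nuclei (0.400%).

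Which lineages held the cycling nuclei was read from 6 marker classes. A nucleus with at least 3% of UMIs from Ttn, Ryr2 and Trdn, genes of the sarcomere and calcium release, was called cardiomyocyte. The others were called by the most abundant of Pdgfra (fibroblast), Cdh5 (endothelial), Rgs5 (pericyte) and Csf1r with Ptprc (leukocyte, macrophage with a Csf1r UMI), with ties called mixed and nuclei with none unassigned. These classes are ranges of marker counts and not clustered cell types. None of these genes is among the 8 of the rule.

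Macrophages held 59 cycling nuclei of 2592 (2.28%, interval 1.74 to 2.93%), and endothelial nuclei held 57 of 6672 (0.854%, 0.648 to 1.11%). Other leukocytes held 12 of 668 (1.80%), pericytes 12 of 2446 (0.491%), fibroblasts 15 of 10712 (0.140%, 0.0784 to 0.231%), mixed nuclei 7 of 697 and unassigned nuclei 12 of 9152. Cardiomyocytes held 0 of 4828, which allows a share of up to 0.0621%. Macrophages thus gave 33.9% and endothelial nuclei 32.8% of all cycling nuclei.

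The shares varied between libraries. In macrophages the share was 1.54% in nTg female 1 (7 of 454), 1.52% in Tg female 1 (8 of 526), 3.55% in Tg female 2 (16 of 451), 3.70% in Tg male 1 (22 of 594) and 1.06% in Tg male 2 (6 of 567). In endothelial nuclei it was 0.666%, 0.441%, 1.22%, 1.22% and 0.820% in the same order. Tg female 2 and Tg male 1, high over all nuclei, were thus also the highest in both classes. The macrophage mean of 2.27% ± 1.25 (SD, n = 5) was 1.80 percentage points above that of all nuclei and higher in 5 of 5 libraries, with an exact sign-flip p of 0.062, the smallest 5 libraries allow, and 0.0938 after Benjamini-Hochberg (BH) adjustment over 6 classes. The endothelial mean of 0.874% ± 0.344 was higher and the fibroblast mean of 0.145% ± 0.0838 lower than that of all nuclei in 5 of 5 libraries each, with the same exact p and adjusted value. The pericyte mean of 0.503% ± 0.353 was higher in 3 of 5 libraries (exact p = 0.812). The other leukocyte mean of 1.71% ± 1.53 was higher in 4 of 5 libraries (exact p = 0.188, adjusted 0.225), and it was above the macrophages in nTg female 1 (1.96%), Tg female 2 (3.95%) and Tg male 2 (2.00%). Macrophages were above endothelial nuclei in 5 of 5 libraries, by 1.40 points ± 0.970 (SD of the difference; exact sign-flip p = 0.062, adjusted over 6 pairs 0.075). None of these values could pass 0.05 in this design.

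**Figure D2:**
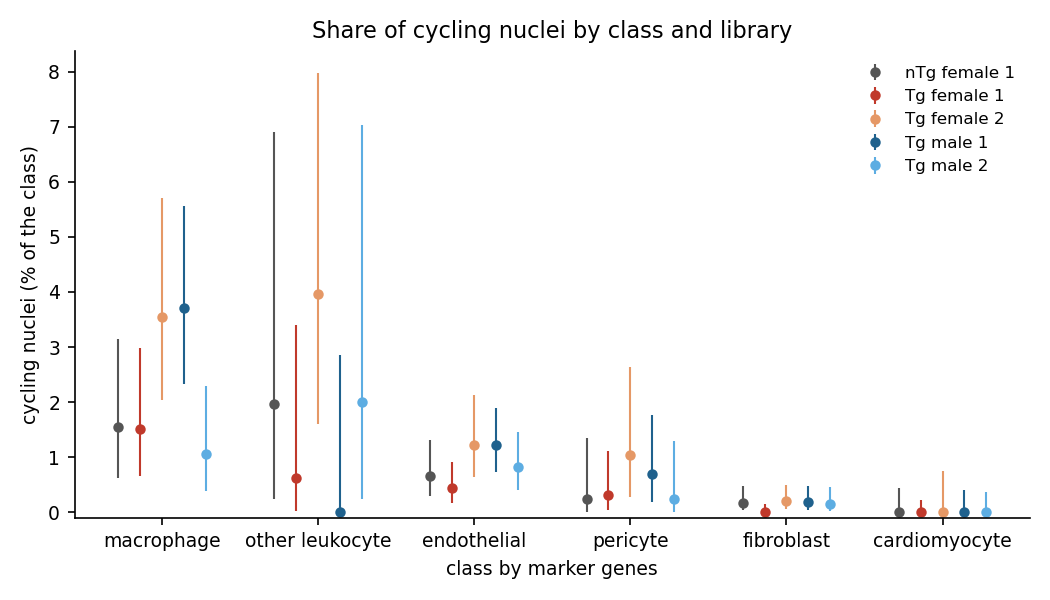
Share of cycling nuclei (percent of the class, points) with 95% Clopper-Pearson intervals (lines) for 6 marker classes in each of 5 libraries, coloured by library. Macrophages lie between 1.06% and 3.70%, endothelial nuclei between 0.441% and 1.22%, and cardiomyocytes at 0 in every library.

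Over the 5 libraries together, the order of macrophage, endothelial, fibroblast and cardiomyocyte shares was the same at equal depth. With every nucleus thinned to 2000 UMIs and 10180 shallower nuclei left out, 2.20% of macrophages (42 of 1907), 0.957% of endothelial nuclei, 0.154% of fibroblasts and 0 of 4724 cardiomyocytes met the rule. Macrophages then lay below endothelial nuclei in Tg male 2, at 0.935% against 1.05%. At 1000 UMIs the shares were 0.989% (25 of 2527), 0.337%, 0.0752% and 0 of 4790, and the macrophage mean lay 0.739 percentage points above that of all nuclei. Without called doublets the shares were 2.04% (44 of 2152), 0.776%, 0.132% and 0 of 4533. Over the 3 libraries whose Ccna2 does not go against the label they were 2.73% (44 of 1612), 1.08%, 0.189% and 0 of 2388.

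The class names were set beside longer marker lists. Each longer list includes the gene that named its class, so part of the agreement was fixed in advance. Of the 57 members called endothelial by Cdh5, 51 scored highest for 9 endothelial genes such as Pecam1 and Flt1. Of 15 called fibroblast 13 did so for fibroblast genes, of 12 called pericyte 8 for pericyte genes, and of 59 called macrophage 44 for macrophage genes such as Mrc1 and C1qa. Of 12 called other leukocyte only 2 scored highest for lymphocyte genes and 8 for macrophage genes, so this name does not hold for most of them. Of the 12 unassigned members 8 scored highest for endothelial genes.

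Cardiomyocytes made up none of the cycling nuclei at the 3% limit. That limit runs through a dense range, with 5368 nuclei between 2% and 4%, whereas 550 nuclei lay between 0.25% and 1.5%. At a limit of 1.5%, 4 of 7453 nuclei were cycling (0.0537%, 0.0146 to 0.137%), 2 in Tg female 1 and 1 each in Tg male 1 and Tg male 2. All 4 were called doublets. A further 11 members lay between 0.25% and 1.5%, where they were 2.00% of 550 nuclei, and 6 of these 11 were called doublets.

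Among nuclei with at least 1.5% of UMIs from Ttn, Ryr2 and Trdn, none of those with much Ccna2 was cycling. In this range 380 nuclei held 10 or more Ccna2 UMIs, from 4 libraries and with 0 in Tg female 1. Of these 380, 354 held none of the 8 rule genes, 26 held 1 (6.84%) and 0 held 2 or more, which allows a share of up to 0.789% for cycling nuclei. Of the 7073 other nuclei of the range only 4 were cycling, so 0 of 380 does not tell the groups apart. Among the other nuclei of that range 9.39% held at least 1 rule gene, at a median of 7202 UMIs against 7919 for the Ccna2-rich nuclei. These others include the 2264 nuclei of Tg female 1, where 11.8% held a rule gene, so the pooled shares mix library with Ccna2. Within libraries 6.25% of Ccna2-rich and 6.99% of other nuclei held a rule gene in nTg female 1. The values were 5.34% and 7.93% in Tg female 2, 7.79% and 10.9% in Tg male 1, and 11.4% and 6.86% in Tg male 2. Of the Ccna2-rich nuclei 10 (2.63%) held at least 3 of the mitosis genes used below and 64 (16.8%) at least 3 of the replication genes. Of the 7073 other nuclei of the range 1.91% and 14.3% did so, and these shares are likewise pooled over libraries. Below the range, between 0.25% and 1.5%, 12 nuclei held 10 or more Ccna2 UMIs, and 3 of these were cycling, all in Tg female 2. These shares were not tested.

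Among the members themselves Ccna2 was sparse. It was detected in 30 of 174 (17.2%), against 1.94% of nuclei that were neither cycling nor cardiomyocytes. Of its 114 UMIs, 44 and 24 came from single nuclei of Tg female 2, and 27 members held 1 to 5 UMIs. By library Ccna2 was detected in 3 of 23 members of nTg female 1, 2 of 21 and 11 of 51 of Tg female 1 and 2, and 8 of 54 and 6 of 25 of Tg male 1 and 2. The 3 members with 10 or more UMIs all came from Tg female 2. They held 44, 24 and 11 Ccna2 UMIs, with 1.49%, 0.926% and 1.06% of UMIs from Ttn, Ryr2 and Trdn. Those with 44 and 11 were called doublets.

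To describe what else marks the cycling nuclei, each was set beside 5 other nuclei of its library and class with the nearest total UMIs, 870 in all (median 4464 UMIs against 4471). Of 13442 genes with at least 30 UMIs in both sets together, outside the 8 of the rule, 233 (1.73%) were at least 2-fold higher in 5 of 5 libraries on the log2(CPM + 10) scale, and 0 (0%) were at least 2-fold lower. The median difference over all genes tested was -0.03. These are differences on the scale of the choice and carry no test.

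On the log2(CPM + 10) scale genes of cytokinesis had the highest median difference of 5 gene lists, 4.05. Of these genes 10 of 10 were at least 2-fold higher in 5 of 5 libraries. Diaph3, a formin, stood at 832 CPM ± 265 (SD, n = 5) in members and 15.2 CPM in matched nuclei, a median log2 difference of 4.84 (range 4.09 to 6.52). Prc1, which bundles the central spindle, Ect2, which activates RhoA at the furrow, Kif23 and Anln, of the midzone and the contractile ring, differed by 4.43, 4.39, 4.35 and 4.27. The lowest of the list was Kif20a at 1.82.

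Of 38 mitosis genes, 36 had enough UMIs and all 36 were at least 2-fold higher in 5 of 5 libraries, with a median log2 difference of 3.32. Neil3, a DNA glycosylase of S and G2 phase, stood at 433, 550, 194, 380 and 415 CPM in the members (libraries in the order nTg female 1, then Tg female 1 and 2, then Tg male 1 and 2), and at 0 to 7.26 CPM in their matched nuclei (median log2 difference 5.02). The members' values lay above the matched values in every library. Kif4, a chromosome motor, differed by 4.79, Hmmr by 4.24, Kif20b by 4.20 and Kif15 by 4.13. Tpx2, which activates Aurora A on the spindle, differed by 4.07, and Ncaph, of condensin, was the lowest at 1.72. Plk1 and Gtse1 had too few UMIs.

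Replication genes were split. Of 38, 33 had enough UMIs, and 18 of these were at least 2-fold higher in 5 of 5 libraries, with a median log2 difference of 1.87. Clspn, a checkpoint adaptor at forks, stood at 186, 142, 59.0, 128 and 218 CPM in the members, in the order of libraries above, and at 0 to 5.8 CPM in matched nuclei (median log2 difference 3.85). Brca1 differed by 3.77, Pole, a polymerase subunit, by 3.03, Brip1 by 3.01 and Atad2 by 2.57. The helicase subunits Mcm3, Mcm4, Mcm6 and Mcm7 did not reach 2-fold in 5 of 5 libraries, with 1.06, 0.67, 0.56 and 0.59, nor did Pcna, the sliding clamp, with 1.15. These rest on few UMIs, 13 for Mcm4 and 61 for Pcna over all members.

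Cyclins, cyclin-dependent kinases and transcription factors of the cycle were mixed. Of 16 such driver genes with enough UMIs, 4 were at least 2-fold higher in 5 of 5 libraries: Ccnf, a cyclin of an SCF ligase (median log2 difference 3.87), E2f7, an atypical E2F that represses (3.0), Foxm1, which activates mitotic genes (2.85), and E2f2 (1.97). The D cyclins of G1 were not among them. Ccnd1 differed by 0.13 and Ccnd2 by -0.40. Ccnd3 was lower in 5 of 5 libraries by 0.71 to 0.89 (median -0.85), at 372, 169, 233, 452 and 357 CPM in members against 667, 321, 439, 747 and 652 CPM in matched nuclei. Ccna2 differed by 0.22 with a range of -2.08 to 1.47 over the libraries, so its summed level has no single direction. It was detected in 17.2% of members and 3.91% of matched nuclei. Of its 114 UMIs in members, 44 and 24 came from single nuclei.

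Of 11 genes that hold the cycle back, 2 were at least 2-fold higher in 5 of 5 libraries. These were Cdkn2c, an inhibitor of CDK4 and CDK6, at 2.31, and Rbl1, the pocket protein p107 of DREAM, at 1.96. Cdkn1a, which encodes p21, differed by 1.45 without reaching 2-fold in all libraries, Cdkn1b (p27) by 0.30, Meis1 by -0.09 and Btg1 by -0.39. The dot plot of list genes shows the 5 lists side by side.

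**Figure D3:**
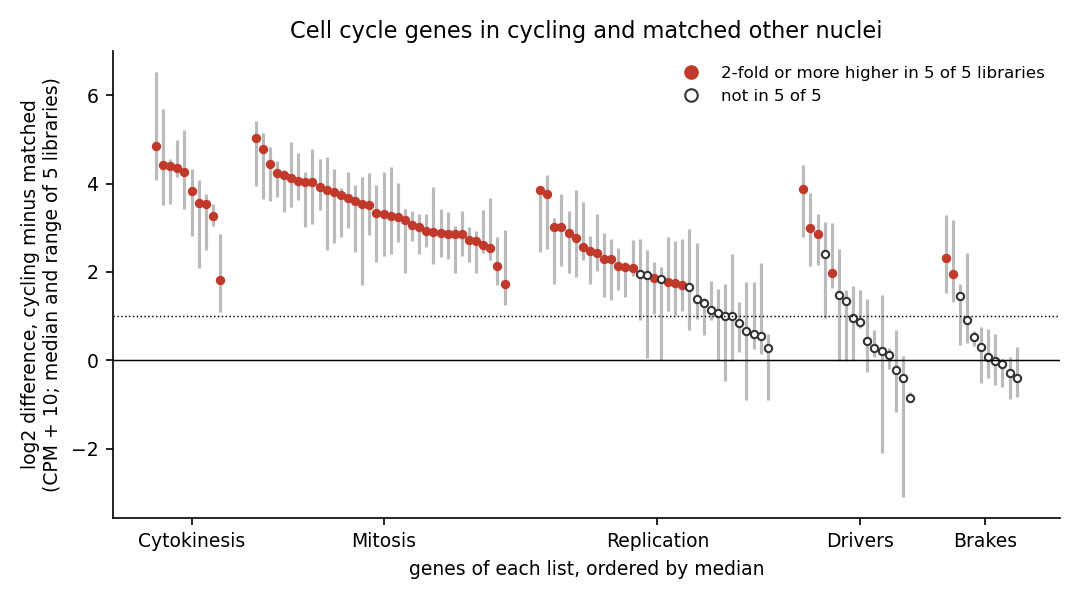
Log2 difference of each gene between cycling and matched other nuclei (CPM + 10; dot, median of 5 libraries; line, range), for 5 gene lists ordered by median; red dots mark genes at least 2-fold higher in 5 of 5 libraries and the dotted line marks 2-fold. All tested cytokinesis and mitosis genes are red, against 18 of 33 replication, 4 of 16 driver and 2 of 11 brake genes.

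The lists hold 70 of the 233 genes and 163 lie outside. The highest of all was Lockd, a long noncoding RNA beside Cdkn1b, at 881, 585, 405, 675 and 736 CPM in members and 1.45 to 7.37 CPM in matched nuclei (median log2 difference 5.77). Cdkn1b itself differed by 0.30. Others outside the lists among the 20 highest were Ckap2 (4.40), Iqgap3 (4.16), Esco2, which establishes sister chromatid cohesion (4.14), and the unnamed transcripts Gm42047 (4.16) and Gm47207 (4.05). Esco2 had 170 UMIs in members and 1 in matched nuclei.

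Promoter motifs differed between the lists. TTTGAA stood in 62.9% of the mitosis promoters and 81.8% of the cytokinesis promoters, and in 14.7% of the replication promoters, against 12.4% of the promoters of all genes tested. CCAAT stood in 68.6%, 63.6% and 70.6%, against 37.0%. The table matched 33 of 38 mitosis, 8 of 10 cytokinesis and 28 of 38 replication genes, and a gene can have several promoters.

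Members led by replication genes and members led by mitosis genes were both found. Each member was called by the larger share of detected genes from the replication list or the mitosis list. This gave 136 nuclei with more mitosis genes, 35 with more replication genes and 3 equal. The call can turn on 1 gene, as in a member of Tg female 1 with 17 replication and 18 mitosis genes. The rule itself uses genes of G2 and M phase, so early S phase nuclei can fall outside it, and no share of the cycle is read from this. Replication-led nuclei were 15 of the 29 with 3 rule genes, 14 of the 54 with 4 or 5, and 6 of the 91 with 6 to 8. Mitosis-led nuclei were 52 of 59 macrophages and 43 of 57 endothelial members. By library, replication-led nuclei were 7 of 23, 1 of 21, 10 of 51, 16 of 54 and 1 of 25 in that same order of libraries. Endothelial nuclei of Tg male 1 gave 8 of its 16, out of 19 endothelial members there.

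**Figure D4:**
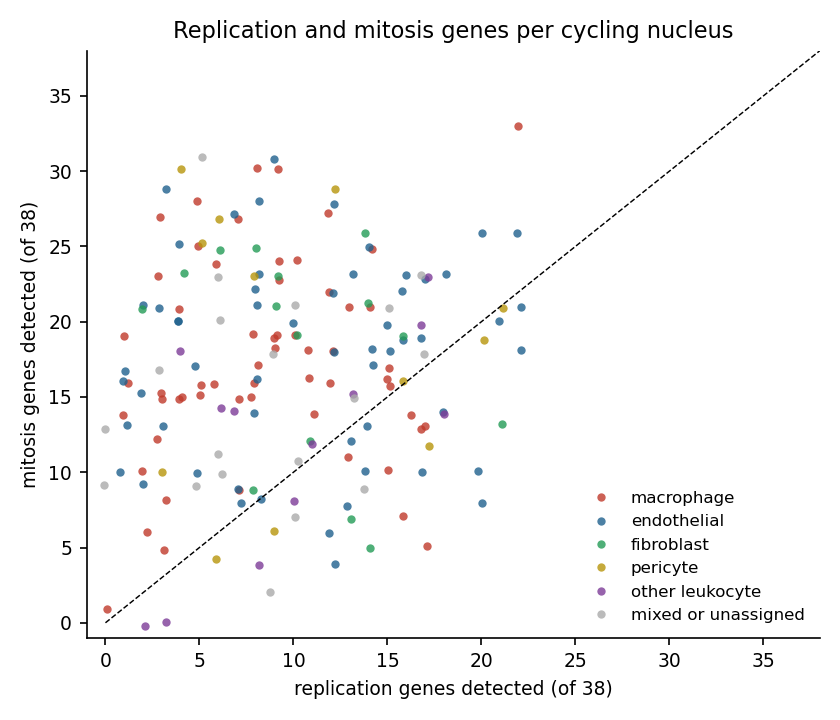
Replication genes against mitosis genes detected in each of the 174 cycling nuclei (each of 38, points moved at random by less than a gene so that they can be told apart), coloured by class, with the line of equal number dashed. Most points lie above the line, 136 by mitosis-led call against 35 below.

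Cell cycle genes were higher in every class with enough members. Summed over the 38 mitosis genes, macrophage members stood at 5624 CPM against 172 CPM in matched macrophages, endothelial members at 4213 against 161, fibroblast members at 6760 against 131 and pericyte members at 5222 against 132. Summed replication genes gave smaller ratios, 5.37 in macrophages, 6.43 in endothelial nuclei, 9.57 in fibroblasts and 6.23 in pericytes. Summed cytokinesis genes gave ratios of 30.4 in macrophages and 25.7 in endothelial nuclei, below the 32.8 and 26.2 of mitosis genes. In other leukocytes they gave 12.7 against 18.2. In fibroblasts and pericytes they gave 82.2 and 71.9, above the 51.7 and 39.4 of mitosis genes. Those ratios rest on 15 and 12 members. Their matched nuclei held only 23 and 18 cytokinesis UMIs and 52 and 55 mitosis UMIs. These are sums over genes with no test between classes.

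Genes of cell identity were compared as sums over the members and over the matched nuclei of the same class. Lower and higher here, and for the classes that follow, mean any difference in these sums, without the 2-fold limit. Of the 13442 genes tested above over all classes together, 1217 were lower and 1327 higher in 5 of 5 libraries by any amount. Of the 9 macrophage genes 4 were lower in cycling macrophages in 5 of 5 libraries, 1 was higher in 5 of 5 and 4 were mixed. In cycling macrophages F13a1, a transglutaminase of resident macrophages, stood at 1780 CPM against 3304 CPM, Mertk, an efferocytosis receptor, at 280 against 593, and Adgre1 (F4/80) at 206 against 384, each lower in 5 of 5 libraries. C1qa, a complement subunit, stood at 893 against 750 CPM and was higher in 5 of 5. Markers added after the class counts were known included Lyve1, at 113 against 297 CPM, and Timd4, detected in 6.78% of members and 27.5% of matched macrophages, both lower in 5 of 5 libraries. Ccr2, a receptor of recruited monocytes, was detected in 6.78% and 7.12%. Over all classes together, members carried fewer called doublets than their matched nuclei in each library, which was not counted for macrophages alone. Of these 59 macrophage members 15 were called doublets, and 15 did not score highest for macrophage genes. The summed level of 9 endothelial genes in these members was 1571 CPM against 1635 CPM in their matched nuclei, that of 9 fibroblast genes 2136 against 2194, and that of 9 cardiomyocyte genes 3521 against 9409. The cardiomyocyte sum was lower in members in 5 of 5 libraries. The part of doublet calls and of other classes' transcripts in these differences was not tested.

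Of the 9 endothelial genes 2 were lower in cycling endothelial nuclei in 5 of 5 libraries and 7 were mixed. In these nuclei Flt1, a receptor for VEGF, stood at 882 CPM against 1555 CPM and Emcn, a sialomucin, at 329 against 542, each lower in 5 of 5 libraries. Cdh5 and Egfl7 stood at 469 against 517 and 846 against 762 CPM. Of vessel-type markers added after the class counts were known, Rgcc of capillaries stood at 54.9 against 213 CPM, Gja5 of arteries at 4.22 against 39.1 and Npr3 of endocardium at 61.2 against 233, each lower in 5 of 5 libraries. Gja5 rests on 2 UMIs in members. Car4, Gpihbp1, Sema3g, Vwf and Prox1 were added as well and are not reported here, so no direction is given for vessel-type markers as a set. The summed level of 9 macrophage genes in endothelial members was 882 CPM against 624 CPM in their matched nuclei, higher in 2 of 5 libraries. That of 9 cardiomyocyte genes was 8912 against 8077 CPM, also higher in 2 of 5, with 15926 against 8861 CPM in Tg female 2. A single endothelial member of Tg female 2, called a doublet, held 109656 UMIs, 26.9% of the UMIs of all members of that library. The part of this nucleus and of other classes' transcripts in the endothelial differences was not tested. In the 15 cycling fibroblasts, from 4 libraries, Abca8a stood at 1028 against 2641 CPM and Dcn, a matrix proteoglycan, at 1455 against 2110, lower in 4 of 4, as were 4 of the 9 fibroblast genes in all, while Col3a1 stood at 1016 against 634 CPM.

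Sex was compared in UMI counts summed over the cycling nuclei of the 4 Tg libraries. Ccna2 goes against the label of Tg female 1 (0.327 CPM in cardiomyocytes). If that label is wrong, sex and transgene cannot be told apart in this comparison. Of 5862 genes tested by edgeR's quasi-likelihood test with BH adjustment, 16 (0.273%) passed 0.05, 13 higher and 3 lower in Tg female. This count rests on the settings and libraries: it was 28 to 198 with 1 library left out, 156 without a filter on low counts, 89 with a replicate block, 46 with all 5 libraries and 30 with another scaling (RLE). Sex-linked genes were the clearest. Xist, the RNA that silences an X chromosome, had 271 and 760 UMIs in Tg female 1 and 2 and 0 in both Tg male libraries, with 361 in nTg female 1 (edgeR adjusted p = 6.25e-06). Tsix, its antisense partner, had 229, 703, 1 and 0 UMIs, and its reads may not be told apart from those of Xist where strand was not counted. Uty and Eif2s3y, on the Y chromosome, had 66 and 43 and 38 and 11 UMIs in Tg male 1 and 2 and 0 in both Tg female libraries (edgeR adjusted p = 0.00166 and 0.0174). Uty had 3 UMIs in 23 members of nTg female 1. Ddx3y had 33 and 6 and Kdm5d 18 and 3 UMIs in the male libraries only, neither passing 0.05.

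The other 12 genes called rest on few nuclei, and 11 of them were higher in Tg female. Dmd, which encodes dystrophin, had 158 and 673 UMIs in Tg female 1 and 2 against 87 and 66 in Tg male 1 and 2, a log2 fold change of 2.18 ± 0.34 (SE; edgeR adjusted p = 0.0230). Of the 673, 396 (58.8%) came from 1 nucleus. Chrm2, the muscarinic receptor of heart muscle, had 16, 99, 4 and 4 UMIs, with 60 of the 99 in 1 nucleus. Fhod3, a sarcomere formin, had 28, 145, 7 and 10 UMIs, Cacna1c, the L-type calcium channel, 186, 634, 98 and 78, and Sorbs2os 56, 250, 26 and 17. Kcnn2 (10, 42, 0 and 1), Ppargc1b (12, 64, 6 and 4), Dcp1b (20, 84, 9 and 8), 4930512H18Rik (17, 89, 2 and 2) and Gm47644 (16, 127, 12 and 7) were among the others. Csmd1 was lower in Tg female, with 0, 3, 60 and 23 UMIs, and the 23 UMIs of Tg male 2 came from 1 nucleus and the 60 of Tg male 1 from 3.

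Cardiomyocyte transcripts moved with these calls. The summed level of 9 cardiomyocyte genes in the members was 7851 and 10344 CPM in Tg female 1 and 2, 1620 and 4610 CPM in Tg male 1 and 2 and 2305 CPM in nTg female 1, and none of the 9 genes was at 0 in any library. In members with under 0.25% of UMIs from Ttn, Ryr2 and Trdn the same sum was 478 and 772 CPM against 666 and 693 CPM. These nuclei were kept for low Ttn, Ryr2 and Trdn, which are 3 of the 9 genes, so a low sum follows from the choice. A single nucleus of Tg female 2 held 109656 UMIs, 26.9% of all member UMIs of that library, and was called a doublet. Without the called doublets, 4 of 3675 genes passed (Xist, Tsix, Uty and Fgf13), and none of the 12 genes that are not sex-linked was among them. Restricted to the members under 0.25%, 5 of 4274 passed, of which Csmd1 alone is among these 12. Without the nucleus of 109656 UMIs, 8 passed. The last 2 restrictions were chosen after seeing the data.

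**Figure D5:**
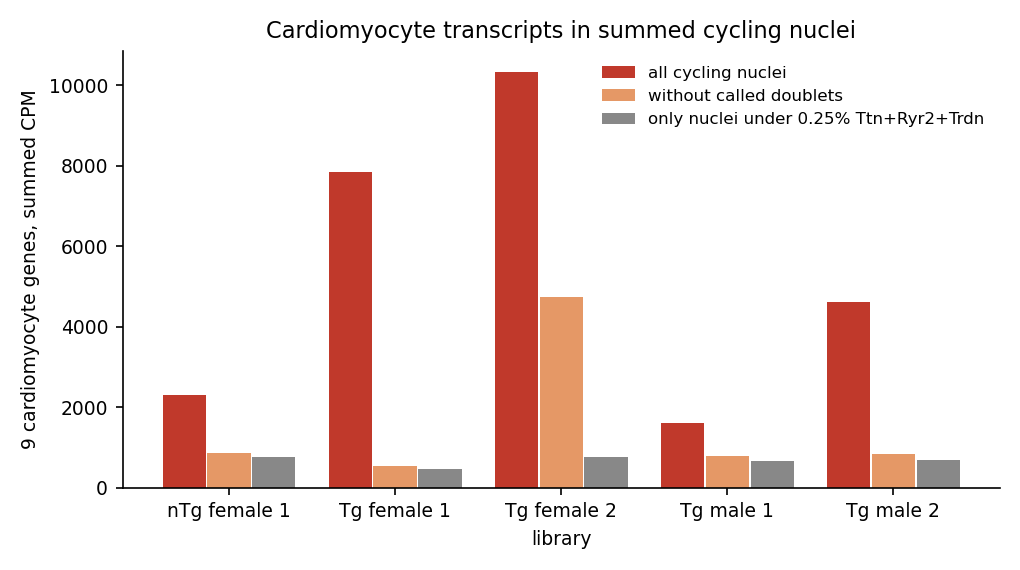
Summed level (CPM) of 9 cardiomyocyte genes in the cycling nuclei of each library, for all of them (red), without called doublets (orange) and for nuclei under 0.25% of UMIs from Ttn, Ryr2 and Trdn (grey). The red bars run from 1620 CPM in Tg male 1 to 10344 CPM in Tg female 2, and the grey bars from 478 to 772 CPM.

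No gene of the cell cycle lists was called by sex. Of the genes tested by edgeR, 0 of 35 mitosis genes passed the adjusted threshold (2 at an unadjusted p under 0.05), 0 of 20 replication genes (3), 0 of 10 cytokinesis genes (0), 0 of 9 drivers (3) and 0 of 7 brakes (0), against 485 unadjusted of all 5862. Their median log2 fold changes were -0.34, -0.58, -0.26, -0.43 and -0.26, against -0.01 over all genes. The sums of Tg female 2 include the nucleus of 109656 UMIs, whose part in these medians was not tested. On simulated counts of these sums the test called 1.67% of genes changed 2-fold, 47.2% of those changed 4-fold and 95.6% of those changed 8-fold among 5943 genes, so most 2-fold differences by sex would not be called with 2 libraries of each sex at these counts.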

How the data were processed

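Nuclei of adult mouse heart were profiled on the 10x Genomics platform. The values are UMI counts, deposited by the authors as whole numbers without normalization. Per the file headers they come from Cell Ranger 7.0.0, and per the submitters' processing notes the genome build is mm10. The counting of introns and of strand and the calling of barcodes are not given in the sources used here. Of 8 matrices, 5 have as many columns as their own barcode list. The other 3, under nTg female 2 (8062 columns, 7583 barcodes) and both nTg male labels (8992 and 8931 columns, 8896 and 11241 barcodes), equal the Tg matrices of the same sex and number and were not analysed here.

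A nucleus needed 200 or more detected genes and less than 5% of its UMIs from mitochondrial genes. Scrublet scored doublets in each library, as run from scanpy 1.11.5 with 6% expected, and called doublets stayed in the main results. In Tg female 2, where fewer than 0.5% were called, the highest 6% of scores were taken, 6.83% with ties. The other libraries had 7.63 to 9.68% called. Shares carry 95% Clopper-Pearson intervals, and a count of 0 is given a limit of 3 counts. Libraries were compared by exact permutation and exact sign-flip tests, two-sided, with BH adjustment. Differences between members and matched nuclei use log2(CPM + 10), and genes under 30 UMIs were left out. Sums of counts were tested with edgeR 4.0.16 (TMM, filterByExpr, quasi-likelihood) in R 4.3.3, checked on simulated counts, with DESeq2 1.42.0 as an alternative. SE is the log2 fold change divided by the root of its F value.

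Genes are named by rule: the 8 rule genes, Ccna2 and the sex-linked genes, the 20 highest of those at least 2-fold higher in 5 of 5 libraries, up to 8 of each list, and the genes called by sex. Called genes past the 5 highest and 5 lowest, and the identity genes added later, were named after their values were seen. Some items the rule would name are not reported here. The members and lists were chosen with earlier results of these data known.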

Additional observations from a re-analysis of the deposited data

How the results depend on the processing

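The macrophage excess over all nuclei (1.80 percentage points) kept its direction in all 12 alternatives run, from 0.739 points at 1000 UMIs per nucleus to 2.22 points with 2 of 8 genes, and from 1.5 to 2.08 points with 1 library left out. The 233 genes at least 2-fold higher numbered 183 to 328 over 5 other settings and 230 to 286 with 1 library left out. Cycling cardiomyocytes numbered 4 at a limit of 1.5% and 18 with 2 of 8 genes, and 0 in 5 other settings, among them 1.5% without called doublets.

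The difference in share by sex (-0.05 points) reversed at a mitochondrial limit of 1% (0.37), without called doublets (0.00422) and at 2000 UMIs (0.016), and ran from -0.306 to 0.207 with 1 library left out (reversed without Tg female 1, 0.207, or Tg male 1, 0.108). The 16 genes called by sex numbered 30 with RLE size factors, 156 without a filter, 46 with 5 libraries and the genotype label, 4 without called doublets, 8 without the nucleus of 109656 UMIs and 5 in members under 0.25% cardiomyocyte UMIs, and 28 to 198 with 1 library left out (198 without Tg female 1, 73 without Tg female 2, 28 without Tg male 1, 141 without Tg male 2), where the lone library is assumed to vary like the others; the cause was not tested. DESeq2 called 17. With a replicate block edgeR called 89 genes, and the share difference stayed at -0.05 points. The replicate numbers share only a number: the deviations of same-numbered libraries correlated at 0.0026 across genes. A library holds 21 to 54 members.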
